A study of Mus musculus with 16 samples.

Results

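The sarcomeric myosin heavy chains, a family of 7 genes here, were followed through the tibialis anterior muscle of mice in 4 models of cancer cachexia, the loss of muscle that accompanies a tumour. The genes are Myh1, Myh2, Myh3, Myh4, Myh7, Myh7b and Myh8, chosen by name as the myosin heavy chains of skeletal muscle, with earlier results of these data known, and all 7 were among the 12021 genes measured. The study sequenced ribosome-depleted RNA from 16 libraries, with 2 cachectic and 2 control libraries in each model. The cachectic groups were KPP mice (strain C57BL/6J), KPC mice (strain given as mixed), C26 mice (CD2F1) and LLC mice (C57BL/6J), and each had its own control group of the same strain. C26 is a colon carcinoma line and LLC the Lewis lung carcinoma line, both commonly grown in mice of matching strain. The labels do not spell out KPP and KPC, and they give no age, sex or time with tumour. Nothing in the labels says that the libraries of a group came from separate animals, so p-values measure only the spread between these libraries.

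Myosin heavy chain is the motor of the thick filament. Its head splits ATP and pulls on actin, its tail packs with other tails into the filament, and which gene a fibre uses sets much of its speed. In adult mouse limb muscle Myh4 encodes the fastest chain (type IIb), Myh1 the IIx chain, Myh2 the slower and more fatigue-resistant IIa chain, and Myh7 the slow type I chain that heart muscle also uses. Myh3 and Myh8 encode the embryonic and perinatal chains, which are used before birth and around it and come back in regenerating fibres. Myh7b encodes an ancestral slow-type chain and carries a microRNA gene in an intron. Tibialis anterior is a fast muscle made up largely of IIb and IIx fibres.

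Values are given as log2 RPM, where RPM is a gene's reads per 1000000 of all reads that a library has in the table, and a change is the mean of the cachectic libraries minus the mean of the control libraries on that scale. Tests used limma on all 12021 genes, a gene counts as called at a Benjamini-Hochberg adjusted p under 0.05, and errors are standard errors. The spread of a gene was pooled over all 8 groups, so its standard error is the same in each of the 4 models. Libraries held 28584279 to 46972882 reads. The share of reads from mitochondrial genes was 5.73% to 8.91% in 7 cachectic libraries, 12.3% in the library KPC cachectic 2 and 9.1% to 13% in the controls, so KPC cachectic 2 lay among the controls on this measure. Replicates lay farther apart in LLC cachectic (SD of the gene-wise log2 differences 0.561) and KPC cachectic muscle (0.534) than in the other 6 groups (0.239 to 0.359). All 8 skeletal muscle markers were listed, and they summed to 220773 to 284467 RPM in every library. In whole muscle, fewer fibres of a type and less RNA per fibre cannot be told apart.

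Of the 7 genes, 5 lie in 1 cluster on the plus strand of chromosome 11 (GRCm38, gene models of GENCODE M21), in the order Myh3 (chr11:67078300-67102291), Myh2 (chr11:67171027-67197517), Myh1 (chr11:67200052-67224575), Myh4 (chr11:67238029-67260446) and Myh8 (chr11:67277124-67308634). Myh7 lies on the minus strand of chromosome 14 (chr14:54970684-54994626) and Myh7b on the plus strand of chromosome 2 (chr2:155611212-155634307). Their coding lengths run from 5805 to 5826 bases, so reads can be compared between the genes almost as they are. The transcripts are alike: 26.7% of all 50-base stretches of the longest Myh2 transcript also occur in another of the 7 genes, 26.1% of those of Myh1, 19.9% of those of Myh8 and 18.6% of those of Myh4. The share is 3.66% for Myh3, 0.21% for Myh7 and 0 for Myh7b. Genes outside the 7, such as Myh6 next to Myh7, were not compared. How the authors' counting treated reads that match more than 1 gene is not given in the sources used here, so part of the reads of the 4 alike genes may have been exchanged among them or lost.

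The 250 bases before the RefSeq start sites (GRCm38.p6) are shown for the 4 neighbours Myh2, Myh1, Myh4 and Myh8, because they hold a run of 14 bases in common. They are also shown for Myh3 and Myh7b, the 2 genes called higher in KPP and in the mean of the 4 models. In the first 4 the capitals mark TTCTAATTATATCC, the longest run that all 4 windows hold. It begins 125 bases before the start of Myh2, 160 before Myh1, 158 before Myh4 and 54 before Myh8, and 4 of 32851 RefSeq windows of this length (0.0122%) hold it on either strand. In the last 2 the capitals mark an E-box, CANNTG, which 66.2% of the windows hold. It is not particular to these 2: unmarked matches also lie in the windows of Myh4 (2) and Myh8 (1).
Myh2, plus strand, chr11:67170777-67171026: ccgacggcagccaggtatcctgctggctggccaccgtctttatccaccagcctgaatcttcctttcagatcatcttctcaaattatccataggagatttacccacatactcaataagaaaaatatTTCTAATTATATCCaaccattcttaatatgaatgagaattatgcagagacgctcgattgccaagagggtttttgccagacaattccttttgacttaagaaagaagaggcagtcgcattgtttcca
Myh1, plus strand, chr11:67199852-67200101: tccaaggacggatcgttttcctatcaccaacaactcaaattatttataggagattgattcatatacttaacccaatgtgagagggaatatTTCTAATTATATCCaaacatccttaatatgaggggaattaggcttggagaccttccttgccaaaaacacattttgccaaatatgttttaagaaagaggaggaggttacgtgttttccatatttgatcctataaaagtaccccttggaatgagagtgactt
Myh4, plus strand, chr11:67237562-67237811: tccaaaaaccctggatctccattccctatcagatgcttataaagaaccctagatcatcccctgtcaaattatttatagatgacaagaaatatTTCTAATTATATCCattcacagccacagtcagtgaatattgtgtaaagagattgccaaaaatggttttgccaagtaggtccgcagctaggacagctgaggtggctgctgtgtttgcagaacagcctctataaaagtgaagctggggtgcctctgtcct
Myh8, plus strand, chr11:67276874-67277123: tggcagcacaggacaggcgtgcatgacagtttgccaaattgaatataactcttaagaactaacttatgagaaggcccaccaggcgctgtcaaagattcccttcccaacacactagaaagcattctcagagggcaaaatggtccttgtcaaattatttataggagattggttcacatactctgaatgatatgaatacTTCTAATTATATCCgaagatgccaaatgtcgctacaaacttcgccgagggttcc
Myh3, plus strand, chr11:67078050-67078299: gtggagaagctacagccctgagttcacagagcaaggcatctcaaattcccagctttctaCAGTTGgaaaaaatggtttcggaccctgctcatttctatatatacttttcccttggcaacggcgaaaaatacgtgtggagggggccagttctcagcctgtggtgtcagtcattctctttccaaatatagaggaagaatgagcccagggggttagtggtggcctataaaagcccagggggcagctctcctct
Myh7b, plus strand, chr2:155610993-155611242: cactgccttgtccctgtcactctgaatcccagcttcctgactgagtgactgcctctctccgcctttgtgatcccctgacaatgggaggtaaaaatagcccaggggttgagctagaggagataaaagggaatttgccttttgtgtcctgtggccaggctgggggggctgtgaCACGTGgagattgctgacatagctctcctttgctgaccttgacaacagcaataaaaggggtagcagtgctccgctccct
The letters TATTTATAG, a MEF2-type run, were also found in the windows of Myh4, Myh1 and Myh8, and in 134 windows in all (0.408%). They do not overlap the 14-base run. The 4 genes with the common run did not move alike in the data below, and the matches are given as a description of the sequence only.

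**Figure D1:**
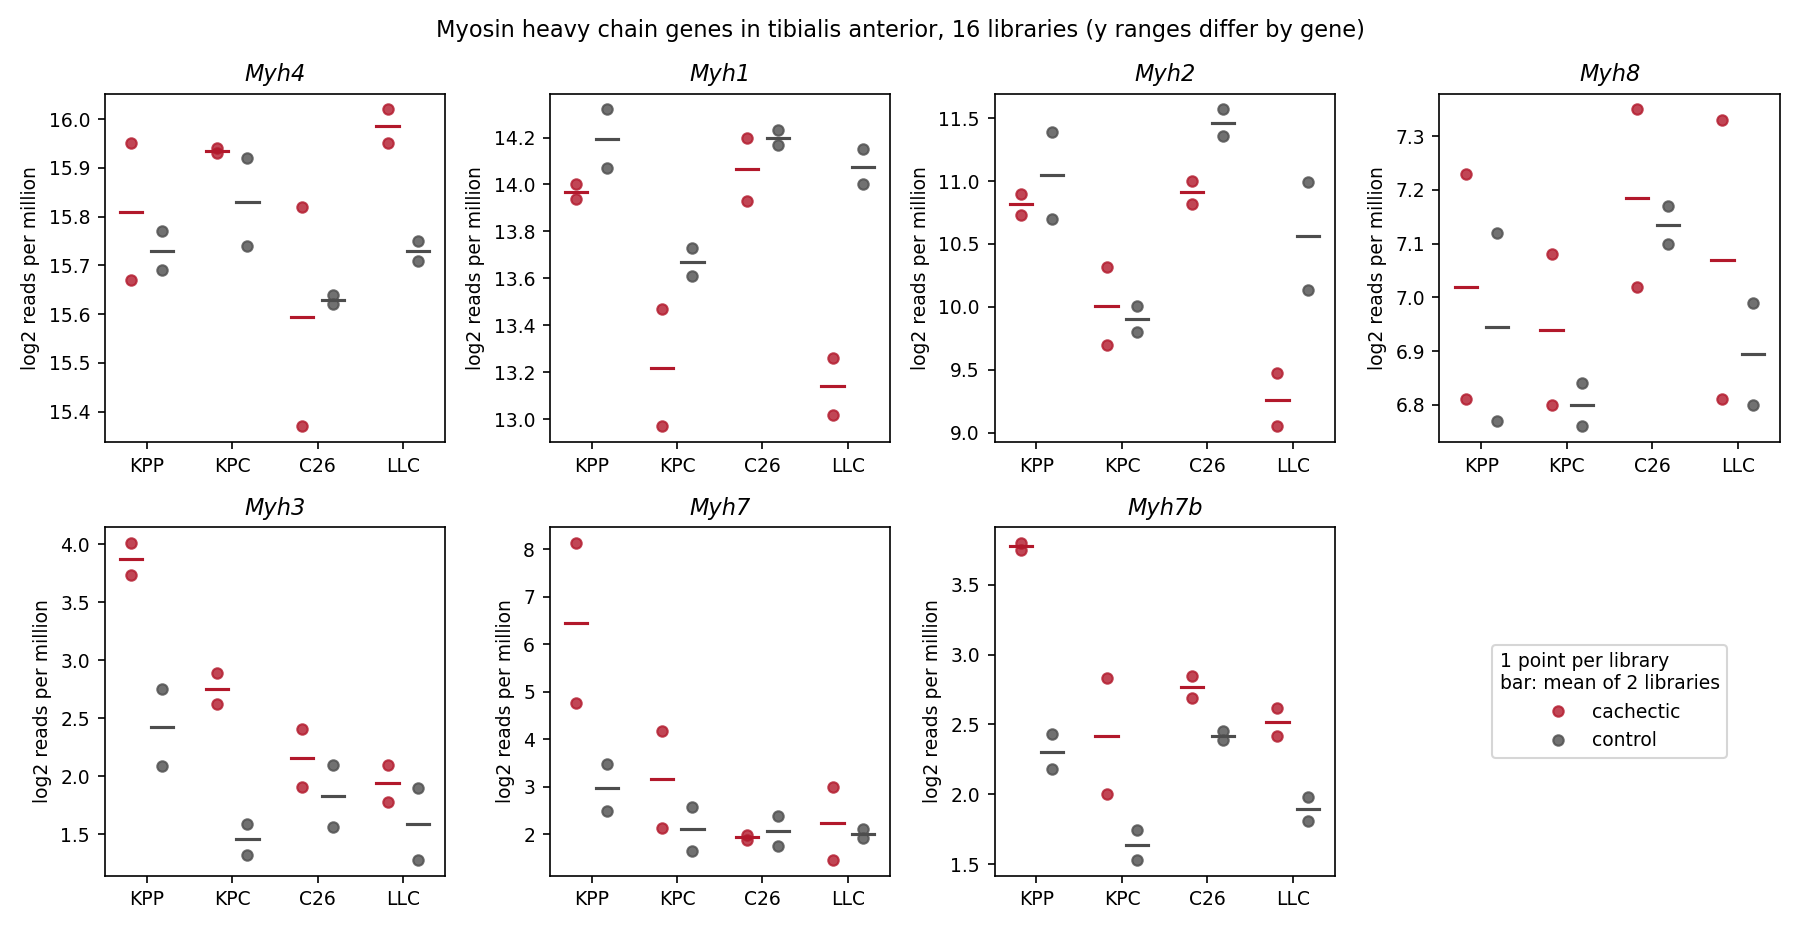
Level of each myosin heavy chain gene (log2 RPM, y axis, with a range of its own per gene) in every library, by model, with cachectic libraries left of their controls; points are libraries and bars the means of 2 libraries. Myh4 lies between 15.37 and 16.02 throughout, while Myh7 spans 1.46 to 8.13 with the library KPP cachectic 1 at the top.

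Myh4, the IIb gene, held most of the myosin RNA in every library. Its share of the 7 genes' reads per coding kilobase was 86.4% and 87.4% in LLC cachectic muscle, against 73.4% and 74.8% in LLC controls. It was 87.5% and 83% in KPC cachectic muscle, against 82.1% and 78.8% in KPC controls, and 74.2% and 77.6% in KPP cachectic muscle, against 74.6% and 69.5% in KPP controls. In C26 it was 66.9% and 76.7% in cachectic muscle, against 70.7% and 69.3% in controls. The cachectic libraries lay above their controls in LLC and KPC, and the groups overlapped in KPP and C26. These shares are a description with no test. The 7 genes together gave 6.34% to 8.17% of all listed reads per library.

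The level of Myh4 hardly differed between cachectic and control muscle. On the log2 scale it was 16.02 and 15.95 in LLC cachectic libraries, against 15.71 and 15.75 in LLC controls, a difference of 0.26 ± 0.19 (adjusted p = 0.386). It was 15.94 and 15.93 in KPC cachectic libraries, against 15.92 and 15.74 in KPC controls. In KPP it was 15.67 and 15.95 in cachectic libraries, against 15.77 and 15.69 in controls. C26 cachectic libraries stood at 15.37 and 15.82, against 15.64 and 15.62 in C26 controls, where the lower cachectic library was also the lowest of all 16. Averaged over the models the change was 0.10 ± 0.10, with a 95% interval from -0.11 to 0.31 (adjusted p = 0.416). From the highest group mean (LLC cachectic, 15.98) to the lowest (C26 cachectic, 15.59) the groups spanned little, and most neighbours in the order had overlapping libraries.

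Myh1, the IIx gene, fell in LLC muscle. Its log2 level was 13.26 and 13.02 in LLC cachectic libraries, against 14.15 and 14.00 in LLC controls. The groups did not overlap, the change was -0.94 ± 0.19 (adjusted p = 0.0215), and the controls held 1.92 times as much. As a share of the 7 genes, Myh1 made up 12.7% and 11.5% in LLC cachectic muscle, against 24.9% and 22.3% in LLC controls. In KPC the level was 12.97 and 13.47 in cachectic libraries, against 13.61 and 13.73 in controls, and the difference of -0.45 ± 0.19 did not pass (adjusted p = 0.575). In KPP it was 13.94 and 14.00 in cachectic libraries, against 14.07 and 14.32 in controls (-0.22 ± 0.19, adjusted p = 0.554). C26 libraries overlapped, with 14.20 and 13.93 in cachectic and 14.17 and 14.23 in control muscle (-0.14 ± 0.19, adjusted p = 0.6). LLC cachectic muscle had the lowest mean of the 8 groups (13.14), KPC cachectic came next (13.22), and the libraries of these 2 groups overlapped.

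Myh2, the IIa gene, also fell in LLC muscle, and its libraries varied more. Its log2 level was 9.05 and 9.47 in LLC cachectic libraries, against 10.13 and 10.99 in LLC controls, a change of -1.30 ± 0.30 (adjusted p = 0.0303), so that controls held 2.46 times as much. Its share of the 7 genes was 0.688% and 0.982% in LLC cachectic muscle, against 1.54% and 2.76% in LLC controls. C26 cachectic libraries stood at 11.00 and 10.82, below the 11.36 and 11.57 of C26 controls, and the difference of -0.55 ± 0.30 did not pass (adjusted p = 0.165). The limma fit on the 4 C26 libraries alone gave the same difference an adjusted p of 0.0155, and it called 5152 of all 12021 genes (42.9%). In KPP the level was 10.90 and 10.73 in cachectic libraries, against 10.70 and 11.39 in controls. In KPC it was 9.70 and 10.32 in cachectic libraries, against 9.80 and 10.01 in controls. KPP and KPC groups overlapped, and the means of KPC cachectic (10.01) and KPC control muscle (9.90) lay below those of the other controls, which ran from 10.56 in LLC to 11.46 in C26.

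Thus 2 of the 7 genes were called in LLC, both lower, where 7.08% of all genes were called (3.42% higher and 3.66% lower). Both also lay wholly lower in cachectic libraries, as did 23.6% of all genes. With each of the 4 LLC libraries left out in turn, the change of Myh1 stayed between -1.06 and -0.82. That of Myh2 lay between -1.73 and -0.87, the smallest without LLC control 2. These fits leave a single library in a group, so no calls are given for them. With only the 4 LLC libraries in the fit limma called 0 of the 12021 genes (2249 at an unadjusted p under 0.05), so that neither was called (adjusted p = 0.144 for Myh1 and 0.177 for Myh2), and the changes were again -0.94 and -1.30. Markers of other cells moved in the same libraries: the 5 erythroid markers, all called higher, summed to 1588 to 3263 RPM in LLC cachectic muscle, against 144 to 163 in LLC controls. The 6 fibroblast markers summed to 335 to 500 in LLC cachectic muscle, against 1072 to 1199 in LLC controls. Of these 3 were called lower, and 2 had a positive change that was not called. The 5 tendon markers (3 called lower) summed to 57.1 to 143 in LLC cachectic muscle, against 270 to 312 in LLC controls. Their part in the myosin result was not tested.

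**Figure D2:**
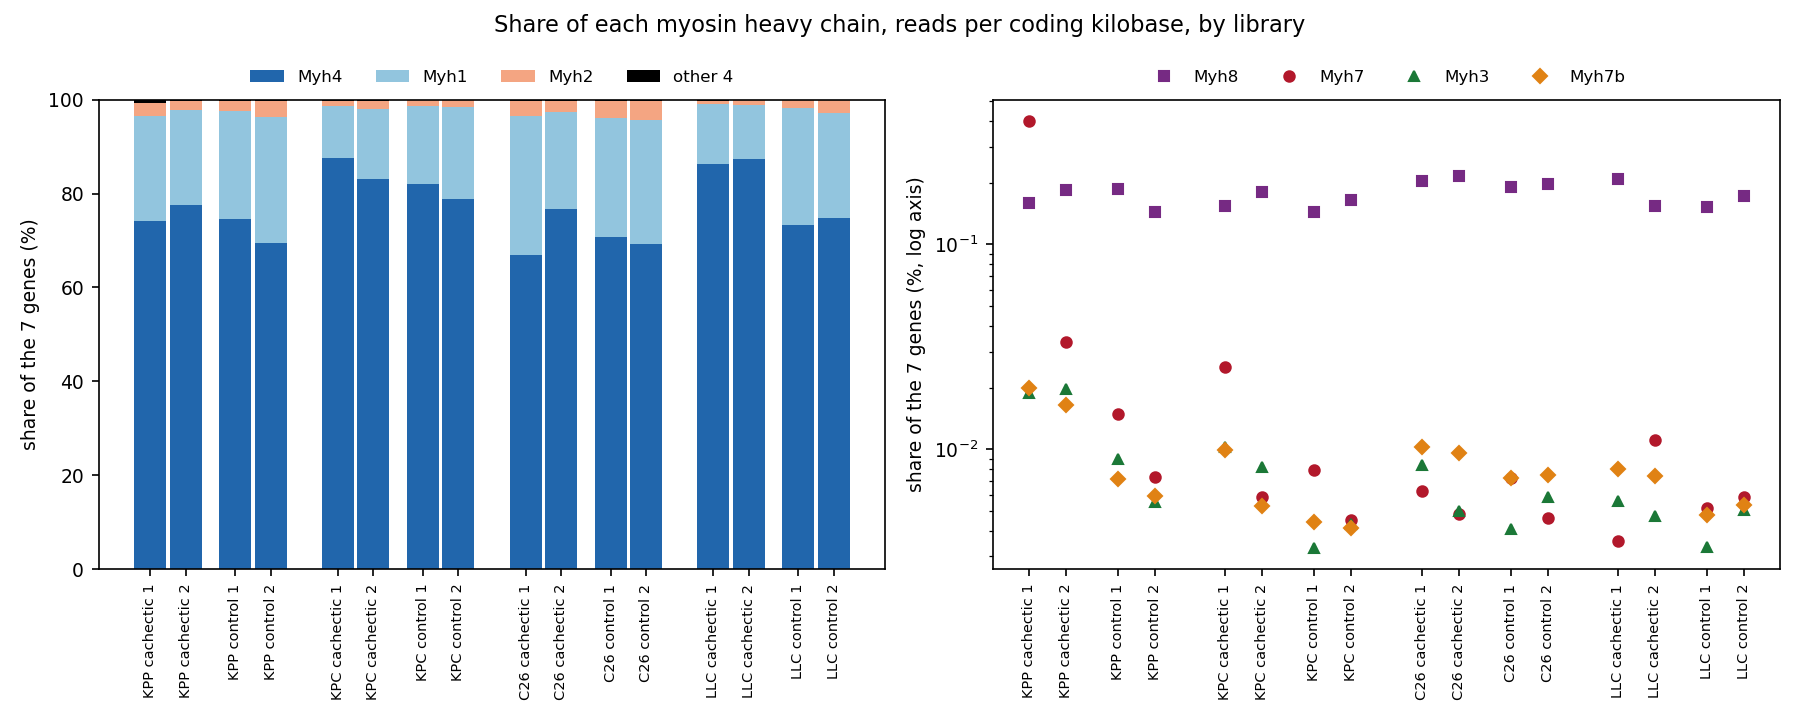
Share of each myosin heavy chain in the reads per coding kilobase of the 7 genes, in percent, for each library, with cachectic libraries left of their controls; bars stack Myh4, Myh1, Myh2 and the other 4 genes, and points give the 4 rare genes on a log axis. Myh4 takes 86.4% and 87.4% in LLC cachectic libraries, against 73.4% and 74.8% in LLC controls, and Myh7 reaches 0.401% in the library KPP cachectic 1.

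Antisense genes overlap 2 of these 3 adult fast genes. Myhas (chr11:67211256-67237573, minus strand) overlaps Myh1 by 13320 bases and reaches to just before Myh4, and in mice it is known as a long RNA of the fast myosin cluster. It was looked at after its values were seen. Its log2 level was 4.38 and 4.13 in KPC cachectic libraries, against 5.33 and 5.44 in KPC controls. In LLC it was 3.78 and 5.17 in cachectic libraries, against 5.28 and 5.06 in controls, with a single cachectic library low. It was 5.30 and 5.36 in KPP cachectic libraries, against 5.47 and 5.54 in KPP controls, and 3.39 and 2.77 in C26 cachectic libraries, against 3.49 and 3.39 in C26 controls. Both C26 groups thus lay below all other groups, cachectic or control. Averaged over the models Myhas fell by 0.59 ± 0.16 on the log2 scale (adjusted p = 0.0138), and in no single model was it called (adjusted p from 0.179 in LLC to 0.808 in KPP). The other antisense gene, 9430073C21Rik (chr11:67195680-67199234, minus strand), overlaps Myh2 by 1838 bases and averaged a change of 0.20 ± 0.25 (adjusted p = 0.532). Whether the counting used strand is not stated, so reads of a gene and of its antisense partner cannot be told apart where they overlap.

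Myh8, the perinatal gene, was not called in any comparison and varied little between libraries. Its log2 level ran from 6.80 to 7.35 in the 8 cachectic libraries, with a median of 7.05, and from 6.76 to 7.17 in the 8 control libraries, with a median of 6.91. The groups overlapped in every model, with differences between 0.05 ± 0.20 in C26 and 0.17 ± 0.20 in LLC and adjusted p from 0.583 to 0.872. The mean over models was 0.11 ± 0.10, with a 95% interval from -0.11 to 0.33. Per coding kilobase it made up 0.144% to 0.216% of the 7 genes and was the most abundant of the 4 rare chains except in the library KPP cachectic 1, where Myh7 stood higher. All neighbours in the order of its group means had overlapping libraries.

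Myh3, the embryonic gene, rose in KPP muscle. Its log2 level was 3.73 and 4.01 in KPP cachectic libraries, against 2.75 and 2.09 in KPP controls, a change of 1.45 ± 0.29 or 2.73 times (adjusted p = 0.0379). These levels rest on 621 and 480 reads in the cachectic libraries and 254 and 121 reads in the controls. In KPC it was 2.89 and 2.62 in cachectic libraries, against 1.32 and 1.59 in controls. The KPC groups did not overlap, and the difference was close in size to that in KPP, 1.30 ± 0.29, but did not pass when adjusted (unadjusted p = 0.000637, adjusted p = 0.51). In C26 the level was 2.41 and 1.91 in cachectic libraries, against 1.56 and 2.10 in controls, and in LLC it was 2.10 and 1.78 in cachectic libraries, against 1.28 and 1.90 in controls. These groups overlapped, and the difference was 0.33 ± 0.29 in C26 (adjusted p = 0.383) and 0.36 ± 0.29 in LLC (adjusted p = 0.414). KPP cachectic muscle had the highest mean of the 8 groups, 3.87, and its libraries did not overlap those of the next group, KPC cachectic (2.76). Even there Myh3 was 0.0189% and 0.0197% of the 7 genes, against 0.00898% and 0.00555% in KPP controls.

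Myh7b rose in KPP muscle and lay higher in cachectic libraries than in every control library of the same model throughout. Its log2 level was 3.80 and 3.75 in KPP cachectic libraries, against 2.43 and 2.18 in KPP controls, a change of 1.47 ± 0.23 or 2.77 times (adjusted p = 0.0124). In LLC it was 2.62 and 2.42 in cachectic libraries, against 1.81 and 1.98 in controls (0.63 ± 0.23, adjusted p = 0.0953). In KPC it was 2.83 and 2.00 in cachectic libraries, against 1.74 and 1.53 in controls (0.78 ± 0.23, adjusted p = 0.547). C26 muscle stood at 2.69 and 2.85 in cachectic libraries, against 2.39 and 2.45 in controls (0.35 ± 0.23, adjusted p = 0.237). Of all genes, 28.9% lay wholly higher in cachectic libraries in KPP, 15.8% in KPC, 59.6% in C26 and 33.8% in LLC. A lack of overlap was thus not rare in any model and was most frequent in C26. KPP cachectic muscle again headed the order (3.77), apart from the next group, C26 cachectic (2.77).

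In KPP, then, 2 of the 7 genes were called, both higher, where 1.78% of all genes were called (0.707% higher and 1.07% lower). Each of the 4 KPP libraries was also left out in turn, which leaves a single library in a group. The change of Myh3 then lay between 1.12 and 1.78, and that of Myh7b between 1.35 and 1.59. In KPC no gene of the 12021 was called by limma, 0% in all, while 1035 genes (8.61%) had an unadjusted p under 0.05, among them 3 of the 7. Those 3 were Myh3, Myh7b and Myh1. Without the library KPC cachectic 2, which lay among controls in its mitochondrial share, they changed by 1.43, 1.20 and -0.70. In C26 none of the 7 was called (0 at an unadjusted p under 0.05, which 44.4% of all genes had), although 28.4% of all genes were (23.2% higher and 5.12% lower).

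**Figure D3:**
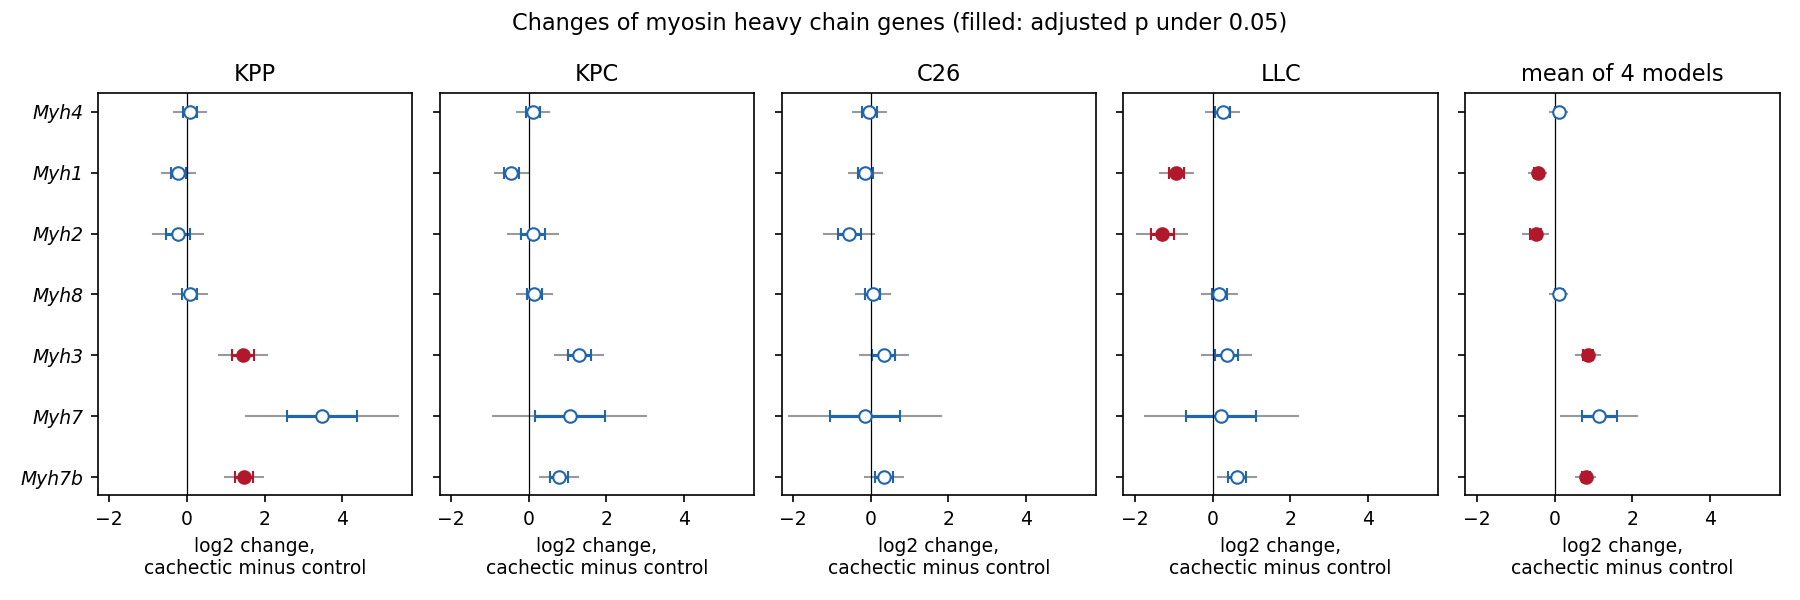
Change of each gene (log2, cachectic minus control, x axis) in each model and as the mean of the 4 models, with standard errors as capped bars and 95% intervals from limma as grey lines; filled points have an adjusted p under 0.05. Filled points are Myh3 and Myh7b in KPP (1.45 and 1.47), Myh1 and Myh2 in LLC (-0.94 and -1.30), and these 4 genes in the mean.

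Myh7, the slow gene, had the widest range of the 7, and a single library set it. Its log2 level was 8.13 and 4.77 in KPP cachectic libraries, against 3.47 and 2.48 in KPP controls, which is 13186 and 817 reads in cachectic and 420 and 159 reads in control libraries. Both cachectic libraries lay above both controls, and they also lay far from each other. The difference of 3.48 ± 0.90 did not pass (adjusted p = 0.0632). Without KPP cachectic 1 it was 1.80, and without KPP cachectic 2 it was 5.16. In KPC the level was 4.17 and 2.14 in cachectic libraries, against 2.57 and 1.65 in controls, again with a single library high. In LLC it was 1.46 and 3.0 in cachectic libraries, against 1.92 and 2.10 in controls, and in C26 it was 1.99 and 1.87 in cachectic libraries, against 2.39 and 1.76 in controls. The differences were 1.05 ± 0.90 in KPC, 0.22 ± 0.90 in LLC and -0.14 ± 0.90 in C26, with adjusted p from 0.716 to 0.914. Each of these intervals spans several units (-2.10 to 1.82 in C26), so moderate rises and falls cannot be told from no change in this fit. The spread behind them is pooled over all 8 groups. The SD of Myh7 was 2.38 in KPP cachectic muscle, against 0.09 in C26 cachectic and 0.44 in C26 control muscle. As a share of the 7 genes, Myh7 was 0.401% and 0.0335% in KPP cachectic muscle, against 0.0149% and 0.00731% in KPP controls.

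Slow fibre partners were set beside Myh7 in the same 4 KPP libraries. Tnnt1, the slow troponin T, stood at 5.08 and 3.13 in KPP cachectic libraries, against 2.06 and 2.04 in KPP controls, and rose by 2.06 ± 0.46 (adjusted p = 0.047). Myl2, the slow regulatory light chain, stood at 5.12 and 3.01 in KPP cachectic libraries, against 2.31 and 1.86 in KPP controls (1.98 ± 0.87, adjusted p = 0.215). Casq2, the calsequestrin of slow fibres and heart, rose by 1.52 ± 0.32 (adjusted p = 0.0435), with 6.39 and 6.60 in KPP cachectic libraries, against 5.03 and 4.91 in KPP controls. Tnnt1 and Myl2 shared the order of Myh7, with KPP cachectic 1 on top, and Casq2 did not. Tpm3, the slow tropomyosin, was high only in KPP cachectic 1, with 6.43 and 5.15 in cachectic libraries, against 5.03 and 5.09 in controls. Atp2a2, the calcium pump of slow fibres and heart, did likewise, with 6.42 and 4.99 in KPP cachectic libraries, against 5.28 and 5.02 in KPP controls. Mb and Myl3, also genes of oxidative and slow fibres, gave negative differences. Mb, myoglobin, stood at 9.25 and 8.70 in KPP cachectic libraries, against 10.77 and 11.08 in KPP controls (adjusted p = 0.052). Myl3, the slow essential light chain, stood at 4.93 and 3.90 in KPP cachectic libraries, against 4.91 and 5.44 in KPP controls (adjusted p = 0.5).

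Myh6, the atrial myosin gene next to Myh7, lay outside the 7 and rose in KPP by 1.37 ± 0.26 (adjusted p = 0.0307), with 4.34 and 3.58 in KPP cachectic libraries, against 2.48 and 2.71 in KPP controls. It was the sole cardiac marker listed of 5. Nppa, Nppb, Tnni3 and Myl7 were not among the listed genes and have no value here. Whether reads were exchanged between Myh7 and Myh6 was not tested, nor was the part of other cells in their changes. Fibroblast markers were lower in the same comparison (4 of 6 called, where 1.07% of all genes were called lower). Their summed levels were 266 to 354 RPM in KPP cachectic muscle, against 676 to 735 in KPP controls. Their part in the changes of Myh3 and Myh7b was not tested either.

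**Figure D4:**
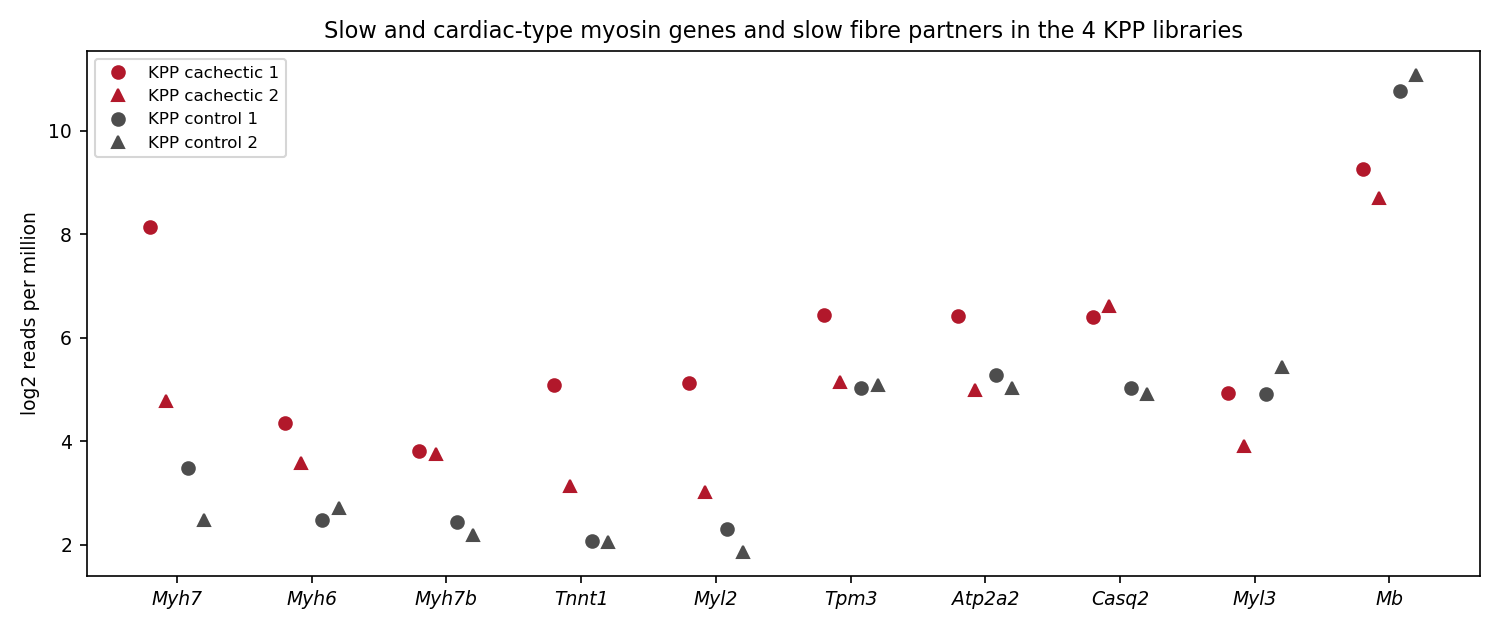
Log2 RPM (y axis) of slow and cardiac-type myosin genes and of slow fibre partners in the 2 KPP cachectic and 2 KPP control libraries, 1 point per library. KPP cachectic 1 stands at 8.13 for Myh7 and 5.08 for Tnnt1, above KPP cachectic 2 at 4.77 and 3.13, while for Casq2 the cachectic libraries lie together at 6.39 and 6.60.

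Averaged over the 4 models, 4 of the 7 genes were called, 2 higher and 2 lower, where 41.1% of all genes were called (27.3% higher and 13.8% lower). Myh7b rose by 0.81 ± 0.11 (adjusted p = 0.000653), with the same direction in 4 of 4 models, and Myh3 rose by 0.86 ± 0.14 (adjusted p = 0.00138), also positive in 4 of 4. Myh1 fell by 0.44 ± 0.10 on the log2 scale (adjusted p = 0.00495), negative in 4 of 4 models, and Myh2 fell by 0.49 ± 0.15 (adjusted p = 0.0199), negative in 3 of 4. Myh7 averaged 1.15 ± 0.45 (adjusted p = 0.0578). The 2 lower genes leaned on LLC: with LLC out of the mean, Myh1 averaged -0.27 (adjusted p = 0.0868) and Myh2 -0.23 (adjusted p = 0.328), while Myh3 and Myh7b were still called. The median change of all genes was 0.10 for this mean and 0.28 in C26. When each library was centred on its median the same 4 genes were called in the mean, with Myh1 at -0.51, Myh2 at -0.57, Myh3 at 0.79 and Myh7b at 0.73. Centred in this way, the C26 differences were -0.28 for Myh4, -0.37 for Myh1, -0.79 for Myh2, -0.19 for Myh8, 0.09 for Myh3, -0.38 for Myh7 and 0.11 for Myh7b, none of them called.

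The models were not shown to differ in any of the 7 genes. limma's F test of the differences between the 4 models' changes called 0 of the 7, where 0.116% of all genes were called. At an unadjusted p under 0.05, which 15.9% of all genes had, there were 3: Myh7b (adjusted p = 0.256), Myh3 (adjusted p = 0.261) and Myh2 (adjusted p = 0.274). In the 6 pairwise comparisons of models none of the 7 was called either. The share of all genes called was 0.025% for KPP minus KPC, 0.299% for KPP minus C26, 0.0333% for KPP minus LLC, 0.0582% for KPC minus C26, 0% for KPC minus LLC and 0.116% for C26 minus LLC. The KPP change of Myh7b exceeded the C26 change by 1.12 ± 0.32 (unadjusted p = 0.0041, adjusted p = 0.107). The KPC change of Myh2 exceeded the LLC change by 1.41 ± 0.42 (unadjusted p = 0.0056, adjusted p = 0.442). A call of Myh1 and Myh2 in LLC, or of Myh3 and Myh7b in KPP, is therefore not a sign that the other models lacked the change.

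Of 15 genes that work beside the fast chains, 6 were called lower in C26 and 0 higher, where 5.12% of all genes were called lower and 23.2% higher, with a list median of -0.51, against 0.28 over all genes. The 6 included Pvalb, the calcium buffer parvalbumin (-1.59 ± 0.25, adjusted p = 0.00331), and Casq1, the fast calsequestrin (-2.27 ± 0.46, adjusted p = 0.0081). In LLC 2 were lower, Actn2, a Z-disc actinin (-1.15 ± 0.19, adjusted p = 0.0112), and Ldb3, another Z-disc protein (-0.89 ± 0.24, adjusted p = 0.0468), where 3.66% of all genes were lower, and none was called in KPP or KPC. In the mean over models 3 were higher and 7 lower, where 27.3% of all genes were higher and 13.8% lower, among the lower ones Myl1, the fast essential light chain (-0.86 ± 0.16, adjusted p = 0.0021), and Tpm1, a tropomyosin (-0.68 ± 0.12, adjusted p = 0.00165). Mylpf, the fast regulatory light chain (-0.28 ± 0.11, adjusted p = 0.0582), and Tnnt3, the fast troponin T (-0.06 ± 0.07, adjusted p = 0.543), were not called.

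Of 10 slow fibre partners measured, out of 13 in the list, 2 rose in KPP (Tnnt1 and Casq2), 4 fell in C26 and 1 fell in LLC. Of all genes, 0.707% were called higher in KPP, 5.12% lower in C26 and 3.66% lower in LLC. The list median was 0.67 in KPP, -0.32 in C26 and -0.39 in LLC, and that of all genes was 0.00 in KPP, 0.28 in C26 and 0.10 in LLC. The LLC gene was Csrp3, the muscle LIM protein (-4.25 ± 0.74, adjusted p = 0.0136), and in C26 Myl3 fell by 2.08 ± 0.59 on the log2 scale (adjusted p = 0.0261). In the mean 2 rose and 4 fell, where 41.1% of all genes were called. Of 14 genes of thick filament assembly and myosin chaperones, 0 were called in KPP and KPC, 1 higher and 2 lower in C26, and 1 lower in LLC (Myom3, an M-band protein, -1.72 ± 0.44, adjusted p = 0.0408). In the mean 5 of the 14 were called, a smaller share than the 41.1% of all genes. Of these 3 were higher, among them Trim63, the ubiquitin ligase MuRF1 that marks thick filament proteins for breakdown (1.42 ± 0.29, adjusted p = 0.00333), and 2 lower, Smyd1, a factor for thick filament assembly (-0.40 ± 0.10, adjusted p = 0.00683), and Mylk4, a myosin light chain kinase (-1.0 ± 0.26, adjusted p = 0.0101).

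Of 13 embryonic and regeneration genes that accompany Myh3 and Myh8 and were measured (of 20 in the list), 5 rose in C26, where 23.2% of all genes were called higher, 1 rose in LLC, where 3.42% were, and 0 were called in KPP and KPC. The list median was 0.29 in C26, against 0.28 over all genes, and 0.33 in LLC, against 0.10. It was 0.31 in KPP, against 0.00 over all genes, and 0.43 in KPC, against 0.01. The C26 genes included Myog, the differentiation factor myogenin (2.05 ± 0.37, adjusted p = 0.00566), and Runx1, a factor of denervated muscle (1.44 ± 0.26, adjusted p = 0.0052), which also rose in LLC (0.98 ± 0.26, adjusted p = 0.0423). In KPP the nearest were Chrna1, a subunit of the acetylcholine receptor (1.27 ± 0.35, adjusted p = 0.0698), and Tnnt2, the troponin T of heart and embryonic muscle (1.36 ± 0.39, adjusted p = 0.0795). In the mean 8 rose and 1 fell, where 27.3% of all genes were called higher and 13.8% lower, with Myog at 1.10 ± 0.19 (adjusted p = 0.00147) and H19, an imprinted RNA of fetal muscle, at 0.77 ± 0.14 (adjusted p = 0.00177).

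Among 31 regulators of fibre type, 0 were called in KPP and KPC, 3 higher and 4 lower in C26, and 2 lower in LLC. Taken over both directions, the share called was below the 28.4% of all genes in C26 and the 7.08% in LLC. These totals show nothing particular to the regulators. By direction, 23.2% of all genes were called higher and 5.12% lower in C26, and 3.66% lower in LLC. The LLC genes were Rcan1, a target and inhibitor of calcineurin (-1.08 ± 0.22, adjusted p = 0.0202), and Esrrg, a nuclear receptor of oxidative fibres (-0.79 ± 0.20, adjusted p = 0.0408). Those in C26 included Tead4, a factor that binds muscle gene promoters (2.00 ± 0.32, adjusted p = 0.00386), Mef2c, a MEF2 factor (-1.02 ± 0.19, adjusted p = 0.00657), and Tbx15, a factor of glycolytic fibres (-0.80 ± 0.16, adjusted p = 0.00697). In the mean 6 were higher and 4 lower, again a smaller share than the 41.1% of all genes, and the list median was 0.09, against 0.10 over all genes.

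Over the 16 libraries the genes fell into patterns, given here as Pearson's r with no test, since the libraries share models, strains and the total as a base. Myh1 and Myh2 ran together (r = 0.85), and both ran against Myh4 (r = -0.74 and -0.70). Myh3, Myh7 and Myh7b ran together, at 0.84 for Myh3 with Myh7b, 0.76 for Myh3 with Myh7 and 0.74 for Myh7 with Myh7b. Myh8 followed none of them closely (from -0.26 with Myh7 to 0.32 with Myh7b). The genes most like Myh1 were Slc47a1 (0.93), Slc29a2 (0.90) and Enpp1 (0.89), and those most like Myh2 were Slc12a4 (0.92), Supv3l1 (0.91) and Vcl (0.88). For Myh4 the highest values were lower, with Fbxl4 and Zranb1 at 0.75 and Mybpc2, the fast myosin-binding protein C, at 0.74. Myh7 was most like Tnnt1 (0.96), Rnf144b (0.88) and Myh6 (0.88); the library KPP cachectic 1 was the highest of all 16 for Myh7, Tnnt1 and Myh6. Myh3 was most like Hnrnpd (0.89), Fam189a2 (0.87) and Tnnt2 (0.85), Myh7b like Unk (0.94), Gigyf1 (0.93) and Lpp (0.91), and Myh8 like Aph1a (0.80), Abcc10 (0.77) and Slc43a2 (0.75).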

How the data were processed

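Total RNA of snap-frozen muscle was depleted of ribosomal RNA and made into Illumina libraries, per the labels. The submitters' processing notes name GRCm38, featureCounts 1.4.5 and limma; the name of the deposited table mentions TopHat and voom, and no source used here gives the annotation, strand setting or low-value filter. Log2 values per gene were deposited by the authors, with 1 column per library. With 2 raised to each value and scaled by the total that the values imply, 100% gave whole reads (tolerance 0.0001) after 0.5 was taken off, so they are log2 reads per 1000000 with 0.5 added to the count and 1 to the total, with no scaling beyond the total. Depth was 28584279 to 46972882 reads. Precision is set by the spread between the 2 libraries of a group, pooled for each gene over the 8 groups.

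The deposited values entered 1 limma fit (3.58.1, R 4.3.3) with a mean for each of 8 groups, moderated with a trend, two-sided, adjusted by Benjamini-Hochberg over 12021 genes. Genes needed a log2 value of at least 0 in 2 libraries, which all 12021 had. Contrasts were cachectic minus control per model, their mean, their pairwise differences and an F test over them. The code was tested on simulated data. Shares used recovered reads per coding kilobase (GENCODE M21). Symbols were matched for 11990 of 12021 identifiers, and RefSeq promoters for all 7 genes. The alternatives are listed in the closing section.

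The 7 genes and the lists of partner genes and markers were chosen with earlier results of these data known. The text names all 7, up to 3 genes of a list with the smallest p per comparison, the light chains and troponins that usually accompany a myosin, and the 3 genes most correlated with each of the 7. Tpm3, Atp2a2, Myhas and 9430073C21Rik were chosen after their values were seen.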

Additional observations from a re-analysis of the deposited data

How the results depend on the processing

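Alternatives were quantile normalization, centring each library on its median, no filter on low values or a stricter one at a mean log2 of 2, robust variances, variances with no trend, voom weights from recovered reads, a replicate block, adjusted p under 0.10, a model's 4 libraries alone, and each library left out. Leaving each model out of the mean was added once the data had been seen. For shares they were reads without the length correction and 0.5 left in the counts. Apart from libraries left out, 352 values kept direction and call and 19 did not. Part of this agreement was fixed in advance. Without a filter the fit equals the main one, since all 12021 genes passed. Robust variances, variances with no trend and the threshold of 0.10 cannot alter a direction.

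With a library left out in turn a group held a single library, so only changes are given for those fits. With only a model's libraries the number of the 7 genes called was 1 in C26, where 5152 of all genes were called. It was 0 in LLC, where 0 were, and 2 with LLC out of the mean, where 28.9% of all genes were called. The causes were not tested. Under quantile normalization uncalled differences turned in C26, Myh4 to 0.28, Myh1 to 0.28 and Myh8 to -0.13 (-0.19 when centred). Myh1 in the mean lost its call (-0.25, adjusted p = 0.0743). This setting gives equal ranks equal values, so genes as abundant as Myh4 and Myh1 have little room to differ under it. Myh1 came to 0.00 in KPP, and Myh4 to 0.00 in KPP and KPC. For these genes the setting is therefore a poor check. With each of the 16 libraries left out in turn, the change in the mean lay between -0.50 and -0.37 for Myh1. It lay between -0.60 and -0.39 for Myh2, 0.78 and 0.94 for Myh3, 0.70 and 0.91 for Myh7b, and 0.73 and 1.57 for Myh7. In KPC without KPC cachectic 2, the 3 genes Myh3, Myh7b and Myh1 changed by 1.43, 1.20 and -0.70. With all 4 KPC libraries these changes were 1.30, 0.78 and -0.45. Whether a call in a single model or in the mean hangs on a single library was not judged from these fits. Without C26 in the mean, where 21.2% of all genes were called, Myh2 lost its call (-0.47, adjusted p = 0.0666) and Myh7 gained it (1.58, adjusted p = 0.0484).

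Uncalled differences that changed sign with a library left out ranged from -0.06 to 0.22 for Myh4, -0.57 to 0.11 for Myh2 and -0.14 to 0.29 for Myh8 in KPP. They ranged from -0.20 to 0.41 for Myh2 in KPC, from -0.26 to 0.18 for Myh4, -0.11 to 0.21 for Myh8 and -0.45 to 0.18 for Myh7 in C26, and from -0.09 to 0.44 for Myh8 and -0.55 to 1.00 for Myh7 in LLC. Same-numbered libraries did not deviate together from their group means (r from -0.0373 to 0.0894), so the numbers were not taken to pair them. The replicate block left 2 of the 7 called in KPP, with Myh7b and Myh7 (3.48, adjusted p = 0.0347) in place of Myh3 (1.45, adjusted p = 0.0929), and added Myh7 to the mean (1.15, adjusted p = 0.0108). At adjusted p under 0.10 Myh7 in KPP and in the mean and Myh7b in LLC were added. Over all genes, calls in C26 split into 2794 higher and 615 lower, and into 840 higher and 1112 lower when centred. In the mean they split into 3284 higher and 1654 lower, and into 2383 higher and 2255 lower when centred. In KPP they split into 85 higher and 129 lower, and into 104 higher and 90 lower when centred. With 2 libraries per group the median standard error was 0.192 for a single model and 0.0962 for the mean of 4, and differences of more than 2 standard errors were not always called (Myh1 in KPC, -0.45 ± 0.19, adjusted p = 0.575).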

Other observations

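Of the other myosin heavy chain genes, 5 of 7 were listed. Myh9, the main non-muscle myosin, rose in C26 (0.85 ± 0.19, adjusted p = 0.0114), where 23.2% of all genes were called higher. It also rose in the mean over models (0.44 ± 0.10, adjusted p = 0.00448), where limma called 41.1% of all genes. Myh10, another non-muscle myosin, fell in LLC by 1.14 ± 0.27 on the log2 scale (adjusted p = 0.0322), and its mean over models was -0.19 ± 0.13 (adjusted p = 0.26). Myh13, the extraocular chain at the end of the fast cluster, differed by 0.53 ± 0.13 in KPP (adjusted p = 0.0583) and -0.47 ± 0.13 in LLC (adjusted p = 0.053), and neither passed. Myh11, the smooth muscle chain, was not called in any of the 4 models or in the mean (0.17 ± 0.08, adjusted p = 0.109). Macrophage markers, whose cells use Myh9, summed to 75.5 to 79.2 reads per 1000000 in C26 cachectic muscle, against 33.7 to 39.4 in C26 controls. Of these markers 4 of 5 were called higher, where 23.2% of all genes were. Their part in the change of Myh9 was not tested.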
